A study of Nasonia vitripennis with 140 samples.

Results

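Of the 15471 genes counted in the wasp Nasonia vitripennis, 5 were abundant in the adult male abdomen, close to absent from the adult female abdomen, and crossed 5 CPM (counts per 1000000 counts of a library) in males between day 7 and day 9 after egg laying. They are LOC100123094, LOC103315476, LOC103315576, LOC100680437 and LOC100679966. They were chosen by mean levels in 4 groups of control wasps. The rule required at least 50 CPM in male abdomens, at most 1% of that in female abdomens, under 5 CPM in males of day 7 and at least 5 CPM in males of day 9. At least 50 CPM in male abdomens was met by 3182 genes, the female limit by 87 of these, the day 7 limit by 36 of those, and the day 9 limit by 5. The rule also capped the set at 300 genes and left out symbols of cytochrome P450 and odorant receptor genes, and neither step removed a gene. The RefSeq gene table lists all 5 as protein coding and gives them no name beyond a locus number, so no function is stated for them here.

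In Nasonia, as in other wasps, unfertilised eggs give haploid males and fertilised eggs give diploid females. The adult male abdomen holds the testes, the accessory glands and the genital apparatus beside gut and fat body, while the adult female abdomen holds the ovaries and the venom apparatus. The gene doublesex (Dsx) encodes a transcription factor at the end of the insect sex-determination cascade, spliced differently in the sexes, and is known for its control of sex-limited traits in many insects.

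All wasps were of the AsymCX strain. Males and females were injected with double-stranded RNA at 4 µg/µl, aimed either at green fluorescent protein (GFP), which wasps lack and which served as control, or at dsx. Larvae injected at day 4 or day 6 and pupae injected at day 8 were frozen whole 3 days after the injection, which gave day 7 larvae, day 9 larvae and day 11 pupae, with 3 individuals pooled in each sample. Heads, thoraces and abdomens were dissected from adults that had been injected as pupae at day 8, and the labels do not give how many were pooled. Embryos of day 1 were pooled in batches of 100 from injected mothers: virgin mothers gave males, and mated mothers gave batches that were 90 to 95% female. The 28 groups had 5 libraries each, 140 in all, with totals of 59.2 M to 113 M counts (M, 1000000). The labels do not say whether the samples of a group came from separate rearing batches, so p-values measure the spread between these samples.

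The level of Dsx was higher, not lower, with the dsx label in male larvae, pupae and abdomens. It was 215 ± 29.2 CPM (SD, n = 5) in GFP males and 295 ± 49.1 in dsx-labelled males of day 7, 202 ± 22.6 and 343 ± 27.0 at day 9, and 116 ± 5.94 and 302 ± 15.2 in pupae. In abdomens it was 464 ± 18.4 and 549 ± 34.9 CPM. By edgeR's quasi-likelihood test with Benjamini-Hochberg adjustment Dsx was higher with the label at each of these stages, with a log2 fold change of 0.47 (adjusted p = 0.000478), 0.72 (1.07e-05), 1.31 (1.16e-06) and 0.27 (0.0186). The abdomen call was lost with DESeq2 (adjusted p = 0.0538), with size factors in place of TMM factors (0.0597) and in 4 of the 10 fits that left out a library. In the other male groups, where Dsx was not tested, it was at 340 ± 34.8 CPM with GFP and 315 ± 81.6 with the label in thoraces, 257 ± 13.7 and 270 ± 69.9 in heads, and 31.7 ± 2.87 and 29.1 ± 4.24 in embryos, with overlapping libraries. The groups are therefore called dsx-labelled, and a direction below is a direction by label. The dissections of GFP wasps were checked with marker genes, and those of dsx-labelled wasps were not. The egg genes oskar and nanos had 491 and 184 CPM in GFP female abdomens against 0.905 and 0.138 in GFP male abdomens, and the opsin Lop1 had 5013 CPM in GFP male heads against 0.0340 in GFP male abdomens. Some GFP female libraries held markers of another body part. The gene oskar reached 34.5 CPM in a thorax, where the lowest female thorax had 1.43 CPM and GFP male thoraces had 0.788 to 2.15 CPM. In GFP heads it was at 4.55 to 7.50 CPM in females and 2.63 to 3.76 CPM in males. Lop1 reached 8.81 CPM in a female thorax and 12.6 CPM in a female abdomen. No marker of the testis was matched by symbol, so male tissue was not checked in that way.

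The 5 genes followed 2 courses in males. LOC103315576, LOC100680437 and LOC100679966 went up 8.93- to 11.7-fold between the GFP male means of day 7 and day 9 and only 1.37- to 1.49-fold from there to the pupa. LOC103315476 and LOC100123094 were low at day 9 and rose 6.77-fold and 85.2-fold from there to the GFP pupa. Their CPM was higher again in the adult abdomen. Larvae and pupae were frozen whole, so each comparison with the abdomen sets a dissected part against whole animals. The values of the GFP groups of day 7, day 9 and abdomens chose the genes and are given as a description.

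LOC103315576 had 5.93, 3.99, 4.50, 3.21 and 3.45 CPM in the 5 GFP male libraries of day 7, and 48.7, 37.3, 46.6, 42.6 and 51.2 CPM at day 9. In GFP male pupae it had 80.5, 61.2, 66.1, 61.1 and 67.8 CPM, and in GFP male abdomens 80.2, 63.1, 64.1, 76.6 and 98.5 CPM. Every day 9 library thus lay above every day 7 library and below every pupal library, while pupae and abdomens overlapped.

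LOC100680437 had 4.70, 4.18, 4.68, 2.61 and 4.84 CPM in GFP males of day 7, and 50.1, 39.9, 51.4, 47.4 and 56.6 CPM at day 9. It had 74.3, 65.2, 65.6, 62.5 and 68.5 CPM in GFP male pupae and 56.0, 43.1, 46.4, 55.9 and 78.9 CPM in abdomens. Replicate 5 of the abdomens lay above every pupal library. The other abdominal libraries lay within the day 9 range and below every pupal library.

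LOC100679966 had 4.94, 3.91, 4.94, 3.48 and 5.23 CPM in GFP males of day 7, and 42.1, 32.2, 43.9, 38.1 and 44.5 CPM at day 9. It had 64.5, 53.5, 54.4, 52.8 and 55.5 CPM in GFP male pupae and 52.6, 39.7, 43.2, 48.4 and 70.2 CPM in abdomens. The abdominal mean was 0.905 of the pupal mean, and for LOC100680437 it was 0.834 of it. In both cases abdominal replicate 5 lay above every pupal library and the other abdominal libraries lay below every pupal library.

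The onset at day 9 rests on the 5 CPM limit for these 3 genes. Their day 7 means of 4.22, 4.20 and 4.50 CPM lay just under it, and all 10 male libraries of day 7 held counts of each, so they were already present at day 7 at 8.55 to 11.2% of their GFP day 9 level. LOC100679966 was the gene closest inside both the day 7 limit and, with 50.8 CPM, the abdomen limit. The nearest genes outside were LOC100679190, with 5.09 CPM at day 7, and LOC100117130, with 48.1 CPM in the abdomen.

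The other pair started lower. LOC103315476 had 1.83, 1.34, 2.03, 2.12 and 1.43 CPM in GFP males of day 7, and 10.2, 7.59, 11.3, 7.47 and 10.6 CPM at day 9. It had 56.4, 65.0, 61.1, 63.3 and 73.3 CPM in GFP male pupae and 230, 193, 211, 239 and 266 CPM in abdomens. No library of a group overlapped with one of the next group, and the day 9 mean in whole larvae was 4.14% of the abdominal mean. It came closest to the female limit, with GFP female abdomens at 0.119% of the male level, and the nearest gene outside that limit was LOC100678983 at 1.46%.

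LOC100123094 had 0.949, 1.51, 1.20, 2.28 and 1.53 CPM in GFP males of day 7, and 9.24, 3.89, 5.96, 4.90 and 4.38 CPM at day 9. It had 471, 470, 491, 473 and 511 CPM in GFP male pupae and 2661, 2599, 2445, 3014 and 2883 CPM in abdomens. The day 9 mean, 5.67 CPM, was just inside the limit, with LOC100678651 the nearest gene outside at 3.56 CPM, and was 0.209% of the abdominal mean. Without GFP replicate 1 the mean was 4.78 CPM, so that library alone keeps the gene in the set. Most of its rise thus fell after day 9.

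The dsx-labelled males of day 7, day 9 and day 11 did not enter the rule, and in them the rise was tested. From day 7 to day 9, 4 of the 5 genes rose, where 37.3% of the 12408 genes tested were called higher. The log2 fold change was 3.89 ± 0.32 (SE) for LOC103315576, 3.75 ± 0.32 for LOC100680437, 3.60 ± 0.32 for LOC100679966 and 2.46 ± 0.21 for LOC103315476, with edgeR adjusted p of 4.93e-08, 7.91e-08, 1.02e-07 and 8.87e-08 and no overlap between the libraries. The share of all genes without such overlap was not counted. LOC100123094 had 2.50, 0.888, 1.12, 1.60 and 1.63 CPM at day 7 and 3.69, 5.31, 0.443, 3.64 and 4.22 CPM at day 9, a log2 fold change of 1.02 ± 0.47 that missed the threshold (edgeR adjusted p = 0.0653). Replicate 3 of day 9 was its lowest library of either age. DESeq2 called the rise, as did edgeR in 2 of the 10 fits that left out a library.

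From day 9 to the pupa all 5 genes rose in dsx-labelled males, where 31.9% of the genes tested were called higher. The log2 fold change was 7.51 ± 0.60 for LOC100123094 and 3.21 ± 0.21 for LOC103315476, against 1.55 ± 0.28, 1.27 ± 0.29 and 1.31 ± 0.28 for LOC103315576, LOC100680437 and LOC100679966 (edgeR adjusted p between 5.36e-09 and 0.00114). These log2 changes are scaled by TMM factors, while the folds given for GFP males are plain CPM ratios. As CPM ratios the dsx-labelled rises were 2.19-, 1.81- and 1.86-fold for LOC103315576, LOC100680437 and LOC100679966. They were 6.93-fold for LOC103315476 and 137-fold for LOC100123094. The 2 courses seen in GFP males thus recurred under the other injection. The dsx-labelled day 9 means were at 34.4 to 51.8% of the dsx-labelled abdominal mean for the 3 early genes. They were at 2.78% for LOC103315476 and 0.117% for LOC100123094.

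**Figure D1:**
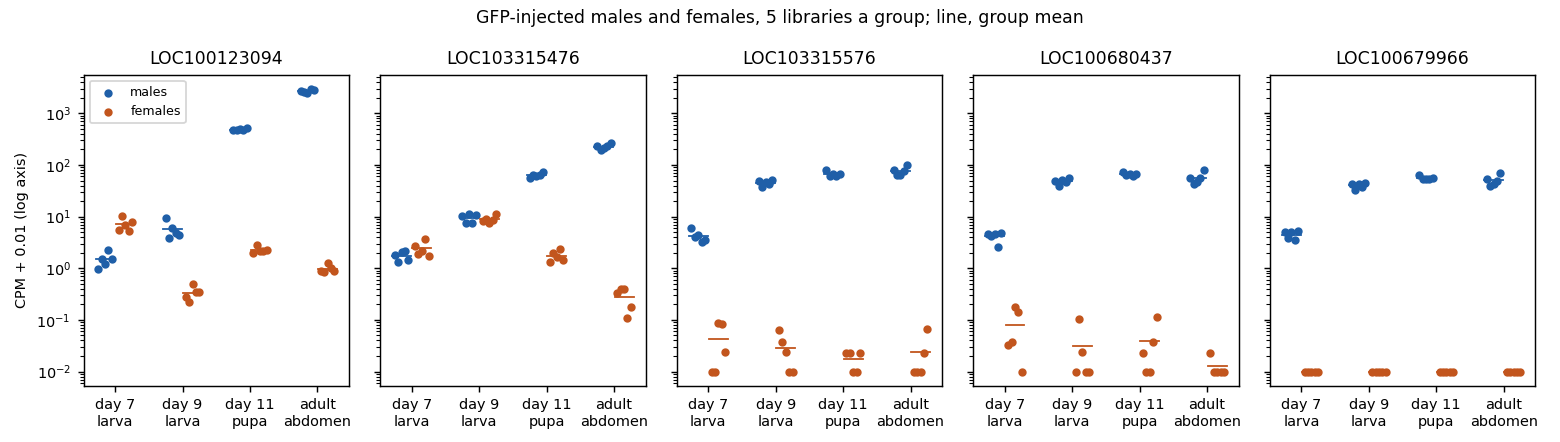
Levels of the 5 genes in GFP males and females at day 7, day 9, day 11 and in adult abdomens, as CPM plus 0.01 on a log axis, with a point for each of the 5 libraries of a group and a line at the group mean. The 3 genes on the right rise most between day 7 and day 9 and stay near the floor in females, while LOC103315476 has the same range in both sexes at day 9 and LOC100123094 is higher in females at day 7.

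The sexes differed in the way the plot of levels by sex shows. LOC100679966 had 0 counts in every female library of the larvae and pupae, 30 libraries in all. GFP males of day 9 were at least 4900-fold higher when females are set at 3 counts over the group, and dsx-labelled males at least 3940-fold. Of the 10 female abdomen libraries, only replicate 5 of the dsx-labelled group held any counts of it, 4 in all, or 0.0530 CPM. LOC103315576 and LOC100680437 were near the floor in females as well. At day 9 females had 7 and 8 counts of them over the 5 GFP libraries, and the GFP males were 2410-fold and 2280-fold higher. The labels mention no molecular identifiers, and such bounds cover counting error only.

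In dsx-labelled larvae of day 9, 4 of the 5 genes were higher in males, where 22.9% of 12364 genes tested were called in that direction. The log2 fold change was 9.86 ± 0.33 for LOC103315576, 9.63 ± 0.43 for LOC100680437 and 3.28 ± 0.46 for LOC100123094 (edgeR adjusted p = 8.87e-15, 4.45e-13 and 1.28e-05). LOC100679966, with no female count, was called as well (6.58e-11). The exception was LOC103315476, which had 8.98, 9.24, 8.57, 9.44 and 7.28 CPM in dsx-labelled males and 6.27, 11.4, 6.31, 10.7 and 9.85 CPM in dsx-labelled females. Its log2 difference was 0.05 ± 0.19 (edgeR adjusted p = 0.881), and the GFP groups had 9.43 ± 1.78 and 8.90 ± 1.31 CPM. At the age from which the rule picks it, this gene was therefore measured at overlapping levels in both sexes, which goes against describing it as a male gene at that age.

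In pupae all 5 genes were higher in males, both in GFP wasps, where 31.6% of the 12400 genes tested were called higher in males, and in dsx-labelled wasps, where 29.6% were. LOC103315476 fell to 1.72 ± 0.415 CPM in GFP female pupae against 63.8 ± 6.23 in males, a log2 difference of 5.29 ± 0.19 (edgeR adjusted p = 4.82e-15). LOC100123094 had 2.28 ± 0.354 CPM in GFP female pupae against 483 ± 17.7 in males, a log2 difference of 7.81 ± 0.23 (2.83e-16). In dsx-labelled pupae the 2 differences were 5.01 ± 0.19 and 8.00 ± 0.23. The male and female libraries of pupae overlapped for none of the 5 genes. How many of all genes tested were free of overlap was not counted, so this is not read as particular to the 5. Markers of other tissues also differed by sex in GFP pupae. Of the 3 fat body genes, Hex70b had 948 ± 398 CPM in males and 6.62 ± 2.16 in females, Hex83 had 3.16 ± 1.50 and 0.589 ± 0.105, and Hex109 had 1.76 ± 0.234 and 1.87 ± 0.575. Lop1 of the eye had 10.6 ± 1.78 CPM in males and 76.1 ± 18.0 in females, and the neural gene Syt1 had 185 ± 14.2 and 265 ± 43.1. Their part in the sex differences was not tested.

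In dsx-labelled abdomens, whose libraries the rule did not use, all 5 genes were again higher in males, where 43.7% of 12356 genes tested were called higher in males. LOC100123094 had 2960 ± 394 CPM against 0.947 ± 0.234, a log2 difference of 12.03 ± 0.21, and LOC103315476 had 313 ± 33.9 against 0.319 ± 0.139, a log2 difference of 10.35 ± 0.27 (edgeR adjusted p = 7.19e-20 and 1.17e-17). LOC100680437 had no count in the 5 female libraries and was at least 9750-fold higher in males. The dsx-labelled female libraries had 2 counts of LOC103315576 and 4 of LOC100679966.

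Day 7 was compared after its levels had been seen. In dsx-labelled larvae of that age LOC103315576, LOC100680437 and LOC100679966 were already higher in males, where 13.8% of 12096 genes tested were, and LOC100123094 and LOC103315476 were higher in females, where 6.99% were. LOC100123094 had 6.36, 6.13, 7.93, 5.62 and 7.43 CPM in females, every library above the male range, a male minus female log2 difference of -2.20 ± 0.30 (edgeR adjusted p = 1.73e-05). In GFP wasps it had 7.21 ± 1.98 CPM in females and 1.50 ± 0.499 in males of day 7. For LOC103315476 the difference was -0.78 ± 0.25 with overlapping libraries (edgeR adjusted p = 0.0300), and the call was lost in 4 of the 10 fits that left out a library and when only the 2 groups were fitted.

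The 2 late-rising genes thus had a female course of their own, also compared after seeing the levels. In dsx-labelled females LOC100123094 fell from day 7 to day 9, from 6.69 ± 0.958 to 0.384 ± 0.0882 CPM, by 4.35 ± 0.44 on the log2 scale, and rose to 1.91 ± 0.787 CPM in pupae, by 2.73 ± 0.44 (edgeR adjusted p = 1.50e-09 and 2.80e-06). LOC103315476 rose from 2.29 ± 0.383 to 8.92 ± 2.47 CPM, a log2 change of 1.75 ± 0.23, and fell to 1.91 ± 0.496 CPM in pupae, a log2 change of -1.80 ± 0.23 (1.17e-07 and 6.17e-08). From day 7 to day 9, 37.1% of 12775 genes tested rose and 33.3% fell in these females, and from day 9 to the pupa 36.8% rose and 38.3% fell.

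The difference between the sexes in these changes was tested in the same libraries. From day 7 to day 9 the male change of LOC100123094 exceeded the female change by 5.36 ± 0.58 log2 units (edgeR adjusted p = 7.63e-08), where 11.2% of genes were called in that direction, and the median over all genes tested was -0.11. For LOC103315476 the excess was 0.71 ± 0.32 and was not called (0.0863), while DESeq2 called it (adjusted p = 0.0431), as did 2 of the 20 edgeR fits that left out a library. From day 9 to the pupa the excess was 4.76 ± 0.59 for LOC100123094 and 5.00 ± 0.32 for LOC103315476 (2.80e-07 and 3.06e-12), where 19.6% of genes were called. Both changes use the day 9 libraries.

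Outside the abdomen the 2 sets also differed. LOC100123094 was present in thoraces of both sexes, at 32.0, 29.0, 36.2, 42.4 and 47.9 CPM in GFP males and 63.5, 46.6, 57.4, 58.4 and 44.6 CPM in GFP females. Females were higher, with a male minus female log2 difference of -0.48 ± 0.13 in GFP wasps and -0.55 ± 0.13 in dsx-labelled wasps (edgeR adjusted p = 0.00781 and 0.00461), where 19.6% and 12.8% of 11782 genes tested were called higher in females. The libraries of the sexes overlapped in GFP wasps and did not in dsx-labelled wasps. In female abdomens of either label LOC100123094 had at most 1.26 CPM. The female thorax was also the highest female group of any of the 5 genes, at 60.9 ± 5.73 CPM with the dsx label, so the description as a male abdomen gene holds for LOC100123094 in the abdomen and not in the thorax. In heads it had 1.97 to 4.69 CPM in males and 2.70 to 5.01 CPM in females, and in embryos at most 0.336 CPM.

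LOC103315476 was at 0.406 to 1.05 CPM in male thoraces and at 0.135 to 0.949 CPM in embryos. In heads it had 3.67 to 4.96 CPM in females. In male heads it had 0.864, 1.10, 3.56, 3.82 and 5.11 CPM with GFP and 0.641, 4.47, 25.5, 4.65 and 3.85 CPM with the dsx label, so 3 libraries were low and replicate 3 of the dsx-labelled group stood far above all others. Without that library the highest male head level was 5.11 CPM.

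LOC103315576, LOC100680437 and LOC100679966 were close to absent from the other body parts. LOC103315576 reached at most 0.581 CPM over the 30 male libraries of heads, thoraces and embryos and 0.520 CPM over the 70 female libraries of every kind. In thoraces these 3 genes had too few counts to pass the filter. In whole larvae and pupae the tissue that held their RNA was not separated, and in bulk samples of this kind fewer cells of a type and less RNA per cell cannot be told apart.

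**Figure D2:**
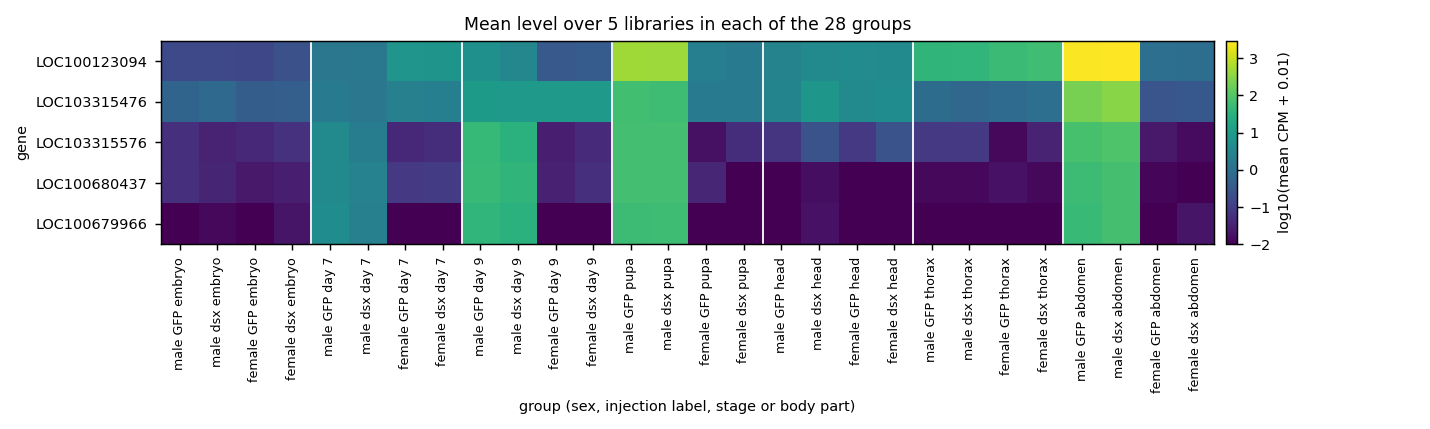
Mean level of the 5 genes over the 5 libraries of each of the 28 groups, as the log10 of CPM plus 0.01 on a colour scale, with groups ordered by stage or body part and then by sex and injection label. The 3 lower rows are high only in males of day 7, day 9 and day 11 and in male abdomens, while LOC100123094 is also present in thoraces and LOC103315476 in both sexes at day 9.

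LOC103315576, LOC100680437 and LOC100679966 also moved together from library to library. The same library was the highest for all 3 genes in 7 of the 8 male groups from day 7 to the abdomen, and the same library was the lowest in 6 of the 8. In dsx-labelled males of day 9 LOC100123094 had the same highest and lowest library as they did. In GFP male abdomens LOC103315476 did. How often other genes share such libraries was not counted, so this is not a trait shown to be particular to the 3. In dsx-labelled males of day 7, replicate 2 was the highest for each, with 3.66, 4.97 and 3.91 CPM, while replicates 1 and 4 were low for each, with 0.982 and 0.778, 1.17 and 0.990, and 0.982 and 1.11 CPM. The ratio of the CPM of LOC100679966 to that of LOC100680437 was 0.82 ± 0.03 (SD, n = 5) at day 9, 0.83 ± 0.02 in pupae and 0.91 ± 0.03 in abdomens of GFP males. That of LOC103315576 to LOC100680437 was 0.92 ± 0.03 at day 9, 1.00 ± 0.05 in pupae and 1.38 ± 0.08 in abdomens. Neither ratio is per gene length, so it compares stages and not genes. Relative to the other pair, LOC103315576 was thus higher in the dissected abdomens than in the whole pupae.

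**Figure D3:**
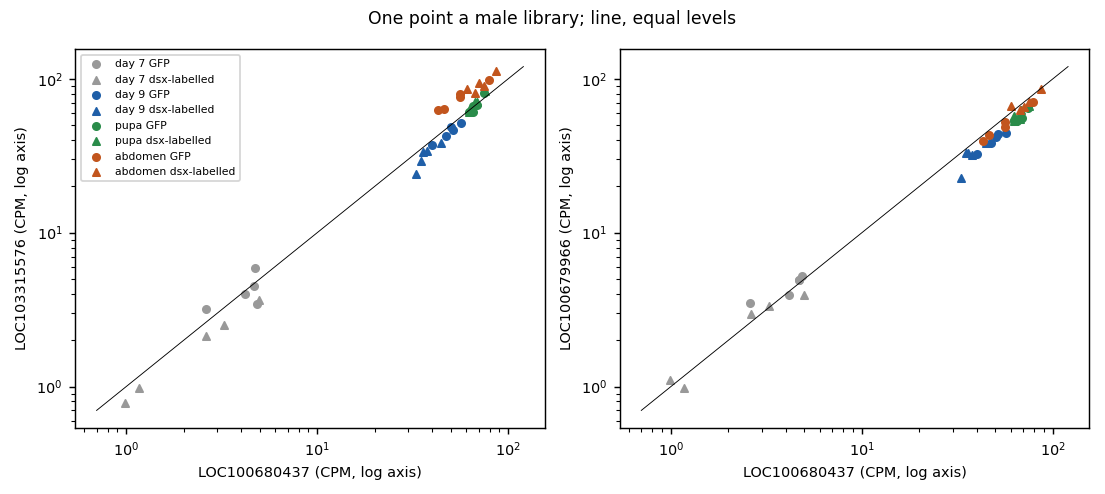
CPM of LOC103315576 and of LOC100679966 against that of LOC100680437 in each male library of day 7, day 9, day 11 and abdomens, on log axes, with circles for GFP and triangles for the dsx label and a line at equal CPM. Libraries spread along the line within each stage, and the abdomens lie above it for LOC103315576.

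Over the 28 group means of log2(CPM + 1), the 3 genes had a Pearson r of 1.00 with each other, 0.82 to 0.84 with LOC103315476 and 0.68 to 0.70 with LOC100123094. These values describe a profile that is near 0 in most groups, which lifts any such r. Of 11143 genes with at least 5 CPM in some group, 34 had an r of at least 0.99 with LOC103315576, 58 with LOC100680437 and 56 with LOC100679966, and of each count 2 were members. Those like LOC100680437 ranged from 0.776 to 34.0 CPM in GFP males of day 7 and from 4.75 to 301 CPM in GFP male abdomens, so the day 7 and abdomen limits cut through a range of genes with the same profile. The most similar ones were LOC100117098, with 3.44, 42.4, 49.5 and 39.5 CPM in GFP males of day 7, day 9, day 11 and abdomens, LOC100117130, with 4.04, 49.9, 61.9 and 48.1 CPM, and LOC103316594, with 2.95, 31.1, 43.6 and 39.3 CPM. No gene reached that r with either late-rising gene: the nearest to LOC103315476 was LOC100680306 with 0.92, and the nearest to LOC100123094 was LOC100678347 with 0.93. LOC100680306 had only 0.850 CPM in GFP males of day 9 and rose to 1876 CPM in abdomens, and LOC100678347 had 0.046 CPM at day 9 and 18.9 CPM in abdomens.

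By the RefSeq gene table, the spans of 4 of the 5 genes overlap that of another gene, and exons were not compared. It is not given whether counting used strand, so reads of a gene may have been assigned to another gene. LOC103315576 lies inside the span of LOC100115398, which had 88.5 CPM in GFP males and 88.9 CPM in GFP females of day 9. Upstream of it in table order lie LOC100115046, with 7.20 CPM in male and 68.5 CPM in female GFP abdomens, and LOC100115076, with 2492 and 326 CPM. On its downstream side follow LOC103315575 and LOC100680543, which were at 0.104 and 0.0672 CPM in GFP males of day 9 and reached 159 ± 4.31 and 297 ± 17.6 CPM in male abdomens against 0 and 0.247 CPM in female abdomens. The genes around it thus differed in sex and stage, and the downstream pair came on later. LOC100679966 overlaps LOC100680034, which had 4.19, 39.9, 46.1 and 16.6 CPM in GFP males of day 7, day 9, day 11 and abdomens and 0 counts in GFP females of day 9 and abdomens, a course like its own up to the pupa.

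LOC100123094 lies inside the span of LOC100123078, which had 46.6 CPM in male and 52.7 CPM in female GFP abdomens. The genes beside it differed in sex and stage. LOC103316219 was at 0.0118 CPM in GFP males of day 9 and 502 ± 44.2 CPM in male abdomens, LOC103316218 was at 79.9 CPM in female and 0.0175 CPM in male abdomens, and LOC103316217 was highest among the GFP male stages at day 9, at 30.5 ± 2.00 CPM against 0.00535 CPM in females. LOC103315476 lies inside the spans of several long genes. Of these, LOC107981322 had 0.390, 10.2, 48.0 and 0.0674 CPM in GFP males of day 7, day 9, day 11 and abdomens. In GFP females of day 9 it had 9.0 CPM. Nos had 3.92, 16.2, 26.7 and 1.91 CPM in these males and 18.8 CPM in these females. Both thus rose up to the pupa, as LOC103315476 did, but were low in abdomens. LOC100679291 and LOC100678622 fell from 253 to 119 and from 59.7 to 52.5 CPM between day 9 and the pupa. LOC103315476 also overlaps LOC100114618, at 18.8 CPM in GFP males of day 9 and 10.6 CPM in male abdomens. Whether reads were assigned to an overlapping gene was not tested. LOC100680437 overlaps no gene in the table.

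The comparison of dsx-labelled with GFP males asked whether the 5 genes moved with the injection. The dsx-labelled male libraries are those of the comparisons by sex. At day 7, which was compared after the levels had been seen, none of the 5 was called by edgeR or DESeq2, where 1.67% of 12096 genes were called lower and 2.43% higher by edgeR. An unadjusted edgeR p under 0.05 was found for 2 of the 5 and for 1933 of the 12096 genes. LOC103315576 was at 2.02 ± 1.18 CPM with the label and 4.22 ± 1.08 without, a log2 difference of -1.06 ± 0.45 (edgeR adjusted p = 0.232). Of the labelled libraries 4 of 5 lay below the GFP range, with replicates 1 and 4 the lowest. The GFP values of day 7 had to be under 5 CPM by the rule.

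At day 9 edgeR called none of the 5, where 2.00% of 12364 genes were called lower with the label and 1.41% higher. All 5 differences were negative, with a median of -0.44 against 0.01 over all genes tested. An unadjusted edgeR p under 0.05 was found for 2 of the 5 and for 2572 of the 12364 genes tested. The GFP values of day 9 had to reach 5 CPM by the rule, which favours negative differences for a gene near that limit. LOC100123094 was near it, with a GFP mean of 5.67 CPM. The GFP means of LOC103315476, LOC103315576, LOC100680437 and LOC100679966 were 9.43, 45.3, 49.1 and 40.2 CPM. The last 3 genes also moved together from library to library, so nothing is read from the shared sign. LOC103315576 had 29.3, 38.2, 24.2, 33.7 and 33.7 CPM with the label, of which only the second reached the GFP range, a log2 difference of -0.55 ± 0.19 (edgeR adjusted p = 0.115). LOC100680437 had 35.1, 44.4, 33.1, 37.5 and 35.9 CPM, a log2 difference of -0.44 ± 0.26 (0.346). LOC100679966 had 32.9, 38.5, 22.7, 32.0 and 32.7 CPM, a log2 difference of -0.38 ± 0.16 (0.210). DESeq2 called LOC103315576 and LOC100680437 lower, with adjusted p of 0.00991 and 0.0220, where it called 7.01% of 12745 genes lower. The 2 tools thus disagree on whether the day 9 difference passes, and the groups overlapped for each gene.

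In pupae no gene of the 5 was called by edgeR or by DESeq2, where 0.581% of 12400 genes were called higher and 0.484% lower by edgeR. None of the 5 had an unadjusted edgeR p under 0.05, against 1144 of the 12400 genes. The log2 differences ran from -0.15 ± 0.15 for LOC103315476 to 0.01 ± 0.07 for LOC100679966. LOC100123094 had 520, 412, 441, 469 and 536 CPM with the label, around the narrower GFP range, a difference of -0.08 ± 0.17. Of the 4 stages, these libraries had the largest log2 difference of Dsx between the labels.

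In abdomens the 3 genes called higher were LOC100679966, LOC103315476 and LOC100680437, where 21.7% of 12356 genes were called higher and 17.6% lower. With RLE size factors 18.3% were called higher and 21.3% lower, so the balance over all genes turned. The median log2 difference of the 5 was 0.38 against 0.02 over all genes tested. LOC100679966 had 66.6, 65.8, 63.1, 86.3 and 71.1 CPM with the label, a log2 difference of 0.50 ± 0.16 (edgeR adjusted p = 0.0185). LOC103315476 had 264, 307, 353, 336 and 305 CPM, a difference of 0.48 ± 0.17 (0.0318), and LOC100680437 had 60.7, 70.2, 67.2, 86.1 and 74.6 CPM, a difference of 0.38 ± 0.13 (0.0238). For each of the 3, only replicate 5 of the GFP group reached the dsx-labelled range. LOC103315576 and LOC100123094 were at 92.5 ± 12.3 and 2960 ± 394 CPM with the label against 76.5 ± 14.4 and 2720 ± 227, and were not called (0.0750 and 0.372). The number called fell to 0 without GFP replicate 1, 2 or 3, to 1 without dsx-labelled replicate 1, and was 4 without GFP replicate 5. RLE size factors and the replicate block lost LOC103315476 (edgeR adjusted p = 0.0538 and 0.0535), and DESeq2 lost LOC100680437 (0.05, at the threshold). The GFP abdomens also entered the rule, by which their mean had to reach 50 CPM, and LOC100679966 and LOC100680437 lay close to that limit. Whether the label acts differently at the 4 stages was not tested.

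**Figure D4:**
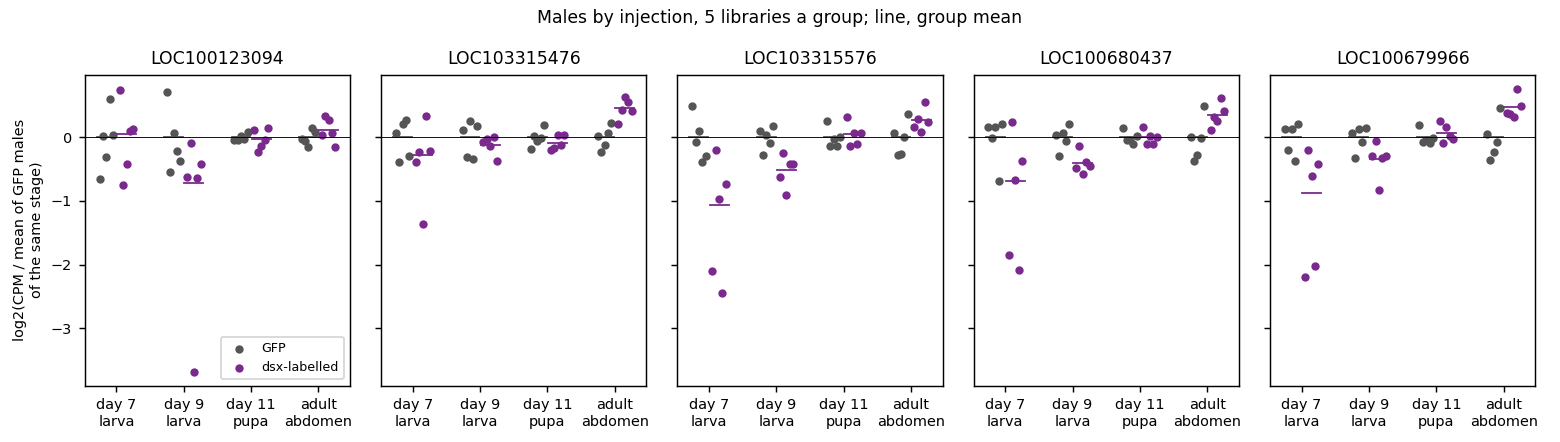
Level of the 5 genes in each GFP and dsx-labelled male library of day 7, day 9, day 11 and abdomens, as the log2 of its CPM over the mean of the GFP males of the same stage, with lines at the group means. The dsx-labelled means lie lower at day 7 and day 9 for the 3 genes on the right, around 0 in pupae and higher in abdomens, and overlap with the GFP points at each stage.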

How the data were processed

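The authors deposited a table of raw counts, whole numbers of reads per gene in 140 libraries that are not normalized; HISAT2 2.0.5 and HTSeq 0.6.1 are named in the submitters' processing notes without a role, and the build and strand setting are not given in the sources used. Reads were 150 bp long, per the labels' protocols. Each column matched the description of a single sample, and all were used. No pair of libraries within a group, 280 in all, had a chi-square per gene below 18.5, and all 140 columns of counts were distinct.

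Levels are CPM, counts over the library's total. Tests used edgeR 4.0.16 in R 4.3.3 on the deposited counts, with TMM factors, filterByExpr at a minimum count of 10, a mean per group, the quasi-likelihood test and Benjamini-Hochberg adjustment over all genes tested; genes with an adjusted p below 0.05 are called. Each stage was fitted on its 20 libraries, the male course on 15 dsx-labelled libraries and the comparison of courses on 30. The edgeR fit was tried on simulated data for the label comparisons in males of day 9, pupae and abdomens. The male change from day 7 to day 9 was simulated as well. The comparisons by sex and of courses were not simulated. A fold against a group at 0 uses a floor of 3 counts over the group. The members and lists were chosen with earlier results of these data known, and the day 7, thorax and female comparisons were added after seeing the data.

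In male pupae, libraries of the same replicate number deviated together (correlations of 0.18 to 0.66), so the numbers pair those samples by the data; the block changed no call there. Genes were named by a rule: the members, the nearest genes to each limit, members with a call free of overlap under the label (there was none), the highest members in heads, thoraces, embryos and females, and Dsx; neighbours and the most similar genes were added. Gene symbols were matched to a RefSeq table of Nvit_psr_1.1, in which 14799 of 15471 were found; it was used for names, biotype and neighbours only. Lists by gene function, promoters and proteins were not used here. Alternatives were DESeq2 1.42.0, size factors by relative log expression (RLE), no filter, only the groups compared, a replicate block and leaving out each library.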

Additional observations from a re-analysis of the deposited data

Results flagged for a closer look

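A library stood apart from its group in 2 of the 62 combinations of gene and group checked, and chance flags about 1 in 20. LOC103315476 had 25.5 CPM in replicate 3 of the dsx-labelled male heads, where the other 4 libraries had 0.641 to 4.65 CPM. In the same library LOC103315576 was at 0.581 CPM, its highest head level. LOC100679966 had 64.5 CPM in replicate 1 of the GFP male pupae, where the others had 52.8 to 55.5 CPM, and LOC103315576 and LOC100680437 were also highest in that library.

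Only LOC100123094 and LOC103315476 were compared between males and females in their changes over time. The other genes, near the floor in females, were left out. The changes differed in 3 cases, and for LOC103315476 from day 7 to day 9 no difference was called (edgeR adjusted p = 0.0863). The male change of LOC100123094 exceeded the female change by 5.36 log2 units from day 7 to day 9 and by 4.76 from day 9 to the pupa, and that of LOC103315476 exceeded it by 5.00 from day 9 to the pupa.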

How the results depend on the processing

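Counts of members called by sex at day 9, in pupae and in abdomens, and from day 9 to the pupa, were the same under DESeq2, RLE factors, no filter, only the groups compared, the replicate block and each left-out library. With the dsx label in males, DESeq2 called 2 members lower at day 9 where edgeR called 0; the cause was not tested. Members called higher in abdomens ranged from 0 to 4 over the left-out libraries against 3, and without GFP replicate 2 the log2 differences were 0.37, 0.38 and 0.25 for LOC100679966, LOC103315476 and LOC100680437. At day 7, members higher in females were 1 when only the groups compared were fitted, and 1 to 2 over the left-out libraries, against 2. In dsx-labelled thoraces members higher in females were 1 to 2 over the left-out libraries, against 1.

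Of 71 gene results, 4 changed sign, all of them uncalled and only when a library was left out. These were LOC103315476 by sex at day 9 (-0.09 to 0.18), LOC103315576 (-0.07 to 0.05) and LOC100679966 (-0.03 to 0.06) by label in pupae, and LOC100123094 by label at day 7 (-0.20 to 0.28). With the replicate block the abdomen call of LOC103315476 was lost (log2 difference 0.49, adjusted p = 0.0535), and the block changed no other call. Outside male pupae, same-numbered libraries had correlations from -0.82 and share only a number.

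Of the 140 means of a gene in a group, 38 reached 5 CPM, 37 with TMM factors over all libraries and 37 to 38 without a replicate; 23 moved by more than 1 SD with TMM factors. Counts over all genes moved more. By label, genes called higher and lower at day 9 were 174 and 247 with edgeR, 364 and 894 with DESeq2, and 126 and 363 with RLE factors. At day 7 they were 294 and 202, 347 and 495, and 242 and 245, and fell to 67 and 45 when only the groups compared were fitted. In abdomens they were 2680 and 2177, 2337 and 2777, and 2261 and 2633. In pupae they were 72 and 60 with edgeR and 129 and 100 with DESeq2. By sex at day 9, genes higher in dsx-labelled females were 1298, and 1973 with only the groups compared. For the sex difference in the change to day 9, 1436 genes were more positive in males and 2619 in females with TMM factors, and 1747 and 1115 with RLE factors, with all-gene medians of -0.113 and -0.010. Counts limit the levels of LOC103315576, LOC100680437 and LOC100679966 in females and in heads, thoraces and embryos of either sex, where LOC100680437 had 2 counts over the 10 male heads and 2 over the 10 male thoraces.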
